A study of Homo sapiens with 12 samples.

Results

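Macroautophagy genes and the receptors that carry cargo into autophagosomes were followed across 12 arrays of SEM-K2 and RS4:11, established human cell lines of acute lymphoblastic leukaemia in which KMT2A (MLL) is fused to AFF1 (AF4). The set was a list of 39 gene symbols, named for their roles in autophagy, out of 19775 genes with a probe set of a single symbol on the Affymetrix U133 Plus 2 array. Each gene was represented by its probe set with the highest mean over the 12 arrays, and 38 of the 39 passed the filter on low values, a log2 GCRMA value above 4 on at least 2 arrays. VMP1, a transmembrane protein of the endoplasmic reticulum that acts in autophagosome formation, was above 4 on 1 array (4.45 in SEM-K2 3xEC50 replicate 1) and did not enter the tests.

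Cells of each line were plated for a day and then exposed for 6 h to vehicle, to obatoclax at its 72 h EC50, or to obatoclax at 3 times that concentration (3xEC50). Obatoclax is a compound made to block BCL2 and its antiapoptotic relatives, and an EC50 is the concentration that gives the response midway between none and the maximal one. All 6 groups carry the KMT2A-AFF1 fusion and were assayed at the same single time. Each group held 2 samples labelled as biologic replicates. Nothing in the labels places them in separate passages, so the p-values here measure only the spread between these samples, which may be technical. The concentrations, and whether they were equal in both lines, are not given in the sources used here.

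In macroautophagy a double membrane grows around cytoplasm or organelles, closes into an autophagosome and fuses with a lysosome. The ULK1 kinase complex and class III phosphatidylinositol 3-kinase complexes start the process, ATG9A vesicles and ATG2 lipid transfer proteins supply membrane, and enzymes related to those of ubiquitin attach ATG8 family proteins such as LC3 to the lipid phosphatidylethanolamine. Cargo receptors bind ATG8 proteins on the membrane and, on the other side, ubiquitinated proteins or mitochondria. BECN1 also binds BCL2 family proteins, the proteins that obatoclax was designed to block. An array measures the RNA of these genes and does not measure the rate at which autophagosomes form or are degraded.

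On each array 41.7% to 42.8% of the probe sets exceeded 4. The 12 arrays are not equal in their signs of RNA quality: the 3' minus 5' difference of the ACTB control probe sets was 1.97 (log2) in SEM-K2 3xEC50 replicate 2 against 0.87 to 1.23 on the other 11 arrays. The 18S control probe set was at 9.85 in RS4:11 vehicle replicate 1 against 5.20 to 6.98 elsewhere. SEM-K2 vehicle replicate 2 had the lowest median over the genes tested, 8.17, where the highest array had 8.34. Of 9 B cell precursor markers on the array, 7 were above 4 on all 12 arrays, CD79A, CD79B, PAX5, EBF1, VPREB1, IGLL1 and CD22 among them, while DNTT and BLNK averaged 9.05 and 7.46 in RS4:11 but 3.62 and 2.86 in SEM-K2. In each of 4 lists for other cells (myeloid, T or NK, erythroid or megakaryocyte, fibroblast or epithelial) 1 marker lay above 4 on all 12 arrays (CSF1R, NKG7, ITGA2B and COL1A1), and the rest, CD14, CD3D, HBB and EPCAM among them, were at or below 4 on all 12. In RS4:11 the summed level of each list in obatoclax overlapped that in vehicle. In SEM-K2 the T and NK sum was 18.5 to 19.7 in vehicle, 19.9 to 20.7 at the EC50 and 19.3 to 20.8 at 3xEC50, and the myeloid sum 19.02 to 19.15, 18.96 to 18.99 and 18.71 to 18.77. The erythroid and megakaryocyte sum was 11.30 to 11.52 in SEM-K2 vehicle and 11.14 to 11.18 at the EC50, and the other sums overlapped with vehicle. The part of these markers in the results was not tested.

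Promoter sequence was available for 35 of the 39 genes, in 43 windows of 250 bases before a RefSeq transcription start in the assembly GRCh38.p14; BNIP3L, UVRAG, RB1CC1 and ATG4D were not matched. 3 motifs were searched on both strands, after the expression values were known: CACGTG, a site for basic helix-loop-helix factors such as TFEB, a regulator of lysosome and autophagy genes; TGACNNNGC, the core of the antioxidant response element; and GGGA followed after any 2 bases by TTCC, a form of the site for NF-kappaB. No window of the set held a match of more than 1 of the 3 motifs. CACGTG stood in 6.34% of 35116 windows of the same length and in 3 of the 43 windows of the set (ATG14, ATG3 and BNIP3). TGACNNNGC stood in 10.9% of all windows and in 3 of the set (ATG101, CALCOCO2 and MAP1LC3B). The NF-kappaB form stood in 1.4% of all windows and in 2 of the set, both of OPTN. These 2 windows overlap and share the same matching stretch. The windows of 4 genes on which the results below turn are shown, with a match in capitals. SQSTM1 is represented by the last of its 3 listed starts, which like the others has no match.
SQSTM1, chr5:179820655-179820904, plus strand: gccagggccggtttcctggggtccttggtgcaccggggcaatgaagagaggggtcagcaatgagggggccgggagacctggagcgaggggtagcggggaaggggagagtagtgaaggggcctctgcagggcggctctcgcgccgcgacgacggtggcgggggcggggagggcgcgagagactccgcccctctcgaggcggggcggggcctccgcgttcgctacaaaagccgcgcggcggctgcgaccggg
MAP1LC3B, chr16:87392086-87392335, plus strand, TGACNNNGC 46 bases before the start: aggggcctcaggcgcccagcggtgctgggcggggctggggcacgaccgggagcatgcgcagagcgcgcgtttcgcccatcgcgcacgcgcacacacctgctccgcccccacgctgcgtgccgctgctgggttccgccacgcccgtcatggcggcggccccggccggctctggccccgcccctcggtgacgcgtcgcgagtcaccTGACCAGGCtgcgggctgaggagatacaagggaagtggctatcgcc
OPTN, chr10:13099832-13100081, plus strand, first of 2 starts, the NF-kappaB form in 2 overlapping matches: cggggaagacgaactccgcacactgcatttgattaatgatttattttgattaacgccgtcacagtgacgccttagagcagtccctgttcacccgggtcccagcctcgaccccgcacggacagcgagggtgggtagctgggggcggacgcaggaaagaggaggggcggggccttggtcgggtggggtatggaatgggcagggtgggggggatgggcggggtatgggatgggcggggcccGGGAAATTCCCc
BNIP3, chr10:131981924-131982173, minus strand, CACGTG 134 bases before the start: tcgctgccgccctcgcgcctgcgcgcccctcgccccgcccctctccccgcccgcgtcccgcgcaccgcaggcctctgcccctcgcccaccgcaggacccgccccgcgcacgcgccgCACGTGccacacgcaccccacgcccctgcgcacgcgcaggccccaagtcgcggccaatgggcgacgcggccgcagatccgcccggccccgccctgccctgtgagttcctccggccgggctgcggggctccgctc
A match is a description of these letters and was not tested as a bound site.

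The highest values of obatoclax against vehicle belonged to cargo receptors, ATG8 proteins and a phosphoinositide binding protein. In the main fit, which leaves the replicate number out, 1 gene passed the test. In SEM-K2 at 3xEC50, SQSTM1 rose 2.41-fold and was the 1 gene of 38 that limma called at an adjusted p under 0.05. Of the 10561 genes tested, 0.625% were called upward. OPTN had a larger difference (2.83-fold) and did not pass in this fit, nor did WIPI1 (2.22-fold), MAP1LC3B (1.93-fold) or GABARAP (1.71-fold). With the replicate number as a block, which pairs same-numbered samples, SQSTM1, MAP1LC3B and OPTN passed, 3 of 38 where 1.55% of all genes were called upward. In this bulk RNA, fewer cells of a type and less RNA per cell cannot be told apart.

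Over the 38 genes, 27 had a higher mean at 3xEC50 than in vehicle in SEM-K2, where 58.6% of all genes did. Their median log2 difference was 0.24, and that of all genes tested 0.06. None was called downward by limma (0.199% of all genes were), and with the replicate number as a block, which pairs the samples here, 3 were called upward (SQSTM1, MAP1LC3B and OPTN, against 1.55% of all genes). At an unadjusted p under 0.05 there were 7 upward and none downward, where 8.1% of all genes were upward. Both treated arrays lay above both vehicle arrays for 18 of the 38 genes, where 22.6% of all genes did so, and below them for 3, where 14% of all genes did so. The median was 0.21 without SEM-K2 3xEC50 replicate 2 and 0.09 without SEM-K2 vehicle replicate 2, the array with the lowest median, where that of all genes was 0.01.

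In SEM-K2 at the EC50, 29 of the 38 genes lay above vehicle, where 61.9% of all genes did. Their median was 0.11, against 0.05 over all genes. Limma called none of them, where 0.17% of all genes were called, and none with the block, where 0.436% were. 3 were above vehicle at an unadjusted p under 0.05 (SQSTM1, WIPI1 and MAP1LC3B, against 3.97% of all genes), and 12 had both arrays above both vehicle arrays (21.8% of all genes). Without SEM-K2 vehicle replicate 2 the median was 0.01 and 20 genes lay above vehicle. No gene of the set was called for the step from EC50 to 3xEC50 in SEM-K2, where limma called 0% of all genes; MAP1LC3B (0.52) was above the EC50 at an unadjusted p under 0.05 (1.19% of all genes), and none was called with the block.

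In RS4:11, limma called none of the 38 genes at either dose, with or without the block, and 0% of all genes. At 3xEC50, 27 lay above vehicle (54.0% of all genes) with a median of 0.11 (0.02 over all genes). WIPI1 and WIPI2 were above vehicle there at an unadjusted p under 0.05 (2.53% of all genes). At the EC50, 25 lay above vehicle (55.7% of all genes) with a median of 0.15 (0.02 over all genes). WIPI1 and NBR1 were above vehicle there at an unadjusted p under 0.05 (2.47%). ULK2 and GABARAPL1 exceeded 4 on RS4:11 obatoclax arrays alone and passed the filter through them. Their place above vehicle and their p were thus favoured by the filter. Both stay in the counts and medians here, and their p is not read. Both arrays lay above both vehicle arrays for 8 genes at 3xEC50 (18.4% of all genes) and for 10 at the EC50 (17.5%), ULK2 and GABARAPL1 being among them at both doses. Without RS4:11 vehicle replicate 2 the medians were 0.01 at 3xEC50 and 0.00 at the EC50. In RS4:11 limma called none of the 38 genes for the step from EC50 to 3xEC50, with or without the block, and none had an unadjusted p under 0.05 (0.805% of all genes did); 17 of 38 lay above 0 and the median was -0.02.

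**Figure D1:**
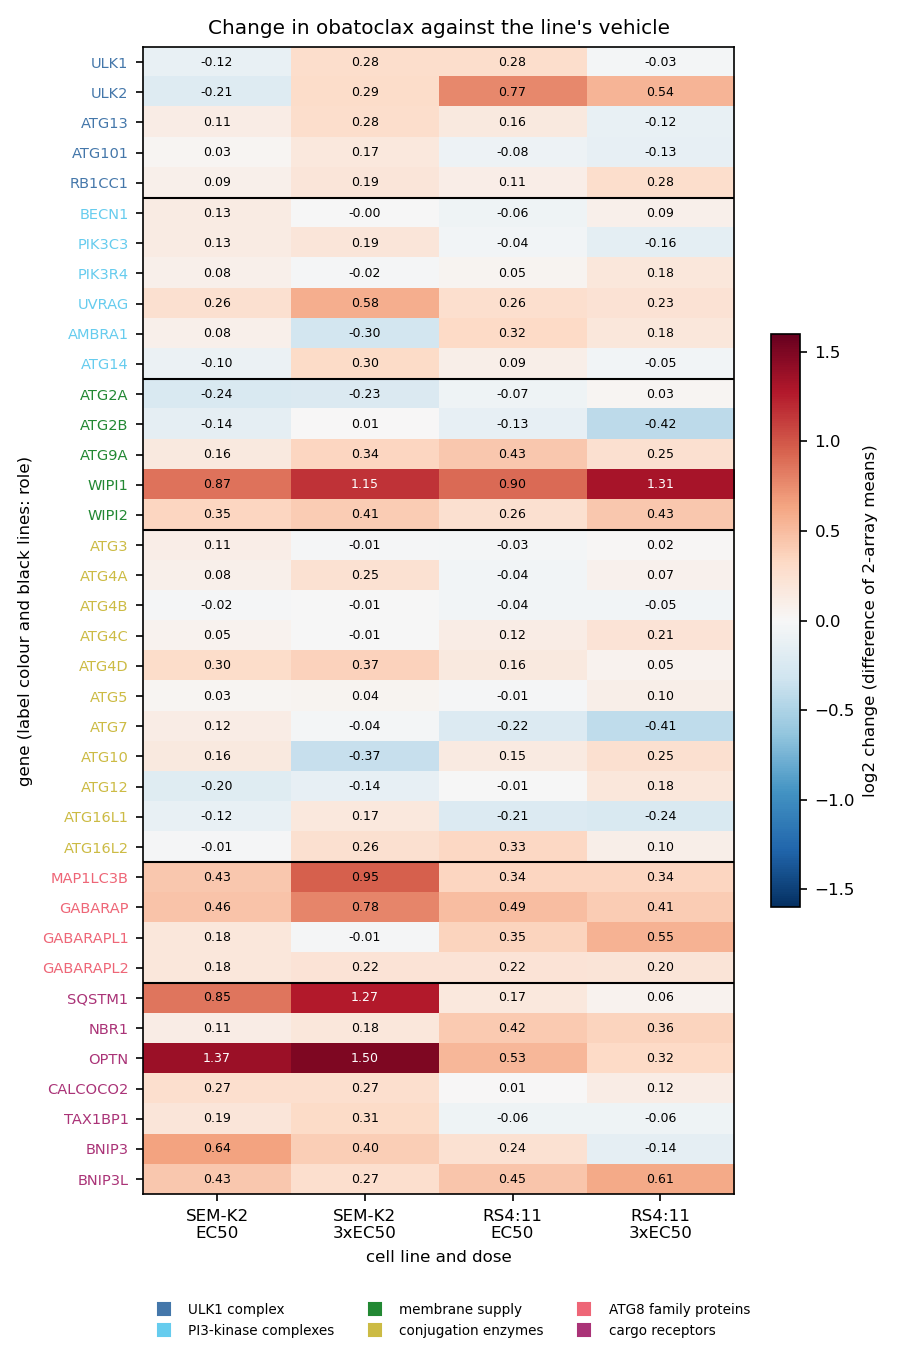
Log2 change of each of the 38 genes tested (rows, grouped by role) in obatoclax against the vehicle of its line, for each line and dose (columns), with the value printed in each cell. Most cells lie near 0, and the darkest are OPTN and SQSTM1 in SEM-K2 (up to 1.50 and 1.27) and WIPI1 in both lines (0.87 to 1.31); BNIP3 in RS4:11, and ULK2 and GABARAPL1 in SEM-K2 and in RS4:11 vehicle, were below a value of 4.

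The ULK1 complex joins the kinases ULK1 and ULK2 with ATG13, ATG101 and the scaffold RB1CC1. All 5 lay above vehicle in SEM-K2 at 3xEC50 (median 0.28), as did 58.6% of all genes. ULK2 lay there at values below 4, and none of the 5 was called. ULK2 was at 3.79 and 3.82 in RS4:11 vehicle, 4.53 and 4.63 at the EC50, and 4.19 and 4.50 at 3xEC50 (replicates 1 and 2). All 4 RS4:11 obatoclax arrays lay above both vehicle arrays, and the vehicle arrays were below the floor of 4. The EC50 value was at least 1.49-fold above vehicle, a bound set against the floor (0.77 ± 0.16 as measured, SE, n = 2 against 2). The 3xEC50 value was at least 1.27-fold above it. Neither was called, and the p, favoured by the filter, is not read. In SEM-K2 ULK2 ran from 2.61 to 3.30 on the 6 arrays, under the floor, so no fold is given there.

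RB1CC1 was at 10.42 and 10.35 in SEM-K2 vehicle, 10.44 and 10.50 at the EC50 and 10.63 and 10.53 at 3xEC50. In RS4:11 it was at 10.93 and 10.68, then 10.84 and 10.99, then 10.97 and 11.19. In SEM-K2 all 4 obatoclax arrays lay above both vehicle arrays, by 0.09 at the EC50 and 0.19 at 3xEC50. A second probe set gave -0.03 and 0.03 there. In RS4:11 both 3xEC50 arrays lay above both vehicle arrays, by 0.28 ± 0.15 (adjusted p = 0.999), which did not pass. ULK1, ATG13 and ATG101 differed from vehicle by -0.13 to 0.28 in all 4 comparisons.

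The class III kinase complexes are built on the catalytic subunit PIK3C3, its partner PIK3R4 and BECN1, with ATG14 in the autophagosome-forming complex, UVRAG in the endosomal one, and AMBRA1 as a regulator of BECN1. None of the 6 was called against vehicle, and 3 of 6 lay above it in SEM-K2 at 3xEC50 (median 0.09). UVRAG was at 7.53 and 7.59 in SEM-K2 vehicle, 7.76 and 7.88 at the EC50 and 7.93 and 8.36 at 3xEC50, and in RS4:11 at 7.17 and 7.59, 7.38 and 7.90, and 7.33 and 7.88. In SEM-K2 all 4 obatoclax arrays of UVRAG lay above both vehicle arrays, while in RS4:11 the groups overlapped. The SEM-K2 difference at 3xEC50 was 0.58 ± 0.26 (adjusted p = 0.419), and replicate 2 was the higher of each pair of arrays in all 6 groups.

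ATG14 was at 7.44 and 7.28 in SEM-K2 vehicle, 7.24 and 7.29 at the EC50 and 7.51 and 7.81 at 3xEC50. The RS4:11 values were 6.92 and 6.74, 6.80 and 7.04, and 6.99 and 6.58, with the groups overlapping. The SEM-K2 3xEC50 difference was 0.30 ± 0.19 (adjusted p = 0.587). BECN1 differed from vehicle by -0.06 to 0.13 in the 4 comparisons, PIK3R4 by -0.02 to 0.18, PIK3C3 by -0.16 to 0.19 and AMBRA1 by -0.30 to 0.32. These are values of the probe sets used. The other probe sets of PIK3C3 above 4 on all 12 arrays gave -0.85, -0.45 and 0.09 in RS4:11 at 3xEC50.

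WIPI1 and WIPI2 bind the phosphoinositide that the class III kinase makes, and recruit later factors to the growing membrane. WIPI1 was at 6.16 and 5.79 in SEM-K2 vehicle, 6.91 and 6.78 at the EC50 and 7.24 and 7.02 at 3xEC50. On the RS4:11 arrays the gene read 4.28 and 4.20, then 4.65 and 5.63, then 5.25 and 5.86. In each line every obatoclax array lay above both vehicle arrays. The log2 differences were 0.87 and 1.15 in SEM-K2 and 0.90 and 1.31 in RS4:11 at the EC50 and 3xEC50, each ± 0.31, and none passed (adjusted p = 0.197 in SEM-K2 and 0.499 in RS4:11 at 3xEC50). A second probe set of WIPI1 gave 1.94 in SEM-K2 and 0.39 in RS4:11 at 3xEC50, so the size of the difference in each line depends on the probe set.

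WIPI2 was at 9.06 and 8.72 in SEM-K2 vehicle, 9.19 and 9.29 at the EC50 and 9.40 and 9.19 at 3xEC50. RS4:11 gave 9.56 and 9.43, 9.82 and 9.69, and 9.94 and 9.91. It shared the order of WIPI1, with every obatoclax array above the vehicle arrays of its line. At 3xEC50 the differences were 0.41 ± 0.16 in SEM-K2 (adjusted p = 0.361) and 0.43 ± 0.16 in RS4:11 (adjusted p = 0.854). WIPI2 has 5 probe sets, 3 of them above 4 on at least 2 arrays. Over the 5 the SEM-K2 difference at 3xEC50 ran from -0.07 to 0.51. ATG9A, a membrane protein of the vesicles that supply lipid, differed from vehicle by 0.16 to 0.43, and the lipid transfer proteins ATG2A and ATG2B by -0.24 to 0.03 and -0.42 to 0.01. Of the 38 genes, WIPI1, WIPI2, MAP1LC3B and GABARAP had every obatoclax array above both vehicle arrays in both lines, 4 of 38 where 3.61% of all genes did so.

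The conjugation enzymes form 2 linked systems. ATG7 activates both ATG12 and the ATG8 proteins, ATG10 and ATG3 transfer them, the ATG12-ATG5-ATG16L1 complex directs the last step, and the ATG4 proteases prepare and recycle ATG8 proteins. None of the 11 was called against vehicle, their median log2 difference was between -0.01 and 0.07 in the 4 comparisons, and 5 of 11 lay above vehicle in SEM-K2 at 3xEC50. The same count was 4 of 11 when each array was centred on its median.

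ATG4D was at 5.39 and 5.20 in SEM-K2 vehicle, 5.63 and 5.56 at the EC50 and 5.64 and 5.68 at 3xEC50. In RS4:11 it was at 6.31 and 6.42, 6.42 and 6.62, and 6.31 and 6.52. In SEM-K2 all 4 obatoclax arrays lay above the vehicle arrays, by 0.37 ± 0.15 at 3xEC50 (adjusted p = 0.364), and in RS4:11 the groups overlapped at 3xEC50. ATG7 was at 5.78 and 5.78 in SEM-K2 vehicle, 5.74 and 6.04 at the EC50 and 5.89 and 5.60 at 3xEC50, and in RS4:11 at 5.38 and 5.99, 5.43 and 5.49, and 5.05 and 5.51. Its groups overlapped in both lines, and its lowest value against vehicle was -0.41 ± 0.24 in RS4:11 at 3xEC50 (adjusted p = 0.999). On the probe sets used, ATG3, ATG4B and ATG5 had the narrowest ranges of the enzymes, -0.03 to 0.11, -0.05 to -0.01 and -0.01 to 0.10. Their other probe sets, above 4 on all 12 arrays, ran wider. These ranges were -0.16 to 0.37 for ATG3, -0.17 to 0.21 for ATG4B and -0.07 to 0.43 for ATG5. ATG4A ran from -0.04 to 0.25, ATG4C from -0.01 to 0.21, ATG10 from -0.37 to 0.25, ATG12 from -0.20 to 0.18, ATG16L1 from -0.24 to 0.17 and its paralogue ATG16L2 from -0.01 to 0.33. A second probe set of ATG10, above 4 on all 12 arrays, ran from -0.66 to 0.01. Both probe sets of ATG10 were lowest against vehicle in SEM-K2 at 3xEC50, with both treated arrays below both vehicle arrays.

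The ATG8 proteins are the molecules that the enzymes attach to membrane, and lipidated LC3 is the usual marker of autophagosomes. 3 of 4 lay above vehicle in SEM-K2 at 3xEC50 (median 0.50), and all 4 in the other 3 comparisons (medians 0.30, 0.35 and 0.38). Of all genes, 54.0% to 61.9% lay above vehicle in the 4 comparisons. GABARAPL1 was counted here with values below 4 in SEM-K2 and in RS4:11 vehicle. It passed the filter through RS4:11 obatoclax arrays alone, so its place above RS4:11 vehicle, in the count and the medians, was favoured by the filter. MAP1LC3B, GABARAP and GABARAPL2 lay above vehicle in all 4 comparisons. MAP1LC3B was at 10.30 and 9.93 in SEM-K2 vehicle, 10.65 and 10.43 at the EC50 and 10.90 and 11.24 at 3xEC50. The RS4:11 values were 10.48 and 10.32, 10.66 and 10.82, and 10.78 and 10.70. Every obatoclax array lay above the vehicle arrays of its line, and in SEM-K2 both 3xEC50 arrays also lay above both EC50 arrays. The SEM-K2 difference at 3xEC50 was 0.95 ± 0.18 (95% interval 0.54 to 1.37, higher in 2 of 2 same-numbered pairs), with a limma adjusted p of 0.0593 and of 0.0357 with the replicate block. It was 0.78 without SEM-K2 3xEC50 replicate 2 (adjusted p = 0.353). The second probe set of the gene gave 0.73.

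GABARAP was at 11.69 and 11.04 in SEM-K2 vehicle, 11.92 and 11.73 at the EC50 and 12.16 and 12.12 at 3xEC50. On the RS4:11 arrays the gene read 11.21 and 10.96, 11.43 and 11.72, and 11.61 and 11.38. Here too every obatoclax array lay above the vehicle arrays of its line. The SEM-K2 difference at 3xEC50 was 0.78 ± 0.23 (adjusted p = 0.219), and 0.45 without SEM-K2 vehicle replicate 2, the lower of the vehicle arrays (adjusted p = 0.891). GABARAPL2 differed from vehicle by 0.18 to 0.22 in the 4 comparisons. GABARAPL1 was above 4 on 2 arrays alone, RS4:11 EC50 replicate 2 (4.27) and RS4:11 3xEC50 replicate 1 (4.54). The other array of each of these groups was below 4 (3.80 and 3.94), so no fold and no p is given for it.

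The cargo receptors include SQSTM1 (p62), NBR1, OPTN, CALCOCO2 and TAX1BP1, which bind ubiquitinated cargo, and BNIP3 and BNIP3L, which sit on the outer membrane of mitochondria. In SEM-K2 all 7 lay above vehicle at both doses (medians 0.43 at the EC50 and 0.31 at 3xEC50), also after each array was centred on its median. Of all genes, 61.9% and 58.6% lay above vehicle at these doses. In SEM-K2 1 of the 7 was called at 3xEC50. In RS4:11, 6 of 7 lay above vehicle at the EC50 and 5 of 7 at 3xEC50 (medians 0.24 and 0.12), and none was called.

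SQSTM1 was at 9.60 and 9.25 in SEM-K2 vehicle, 10.18 and 10.37 at the EC50 and 10.50 and 10.88 at 3xEC50. RS4:11 gave 9.65 and 9.52, 9.57 and 9.95, and 9.59 and 9.69. The 4 SEM-K2 obatoclax arrays lay above the other 8 arrays, both 3xEC50 arrays lay above both EC50 arrays, and in RS4:11 the groups overlapped. In SEM-K2 at 3xEC50 SQSTM1 rose by 1.27 ± 0.20 (95% interval 0.82 to 1.72, higher in 2 of 2 same-numbered pairs, limma adjusted p = 0.0266). At the EC50 the difference was 0.85 ± 0.20 (adjusted p = 0.291), and in RS4:11 it was 0.17 at the EC50 and 0.06 at 3xEC50.

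The call on SQSTM1 was not stable to single arrays. It was lost without SEM-K2 3xEC50 replicate 2, the array with the high ACTB 3' minus 5' difference (1.08, adjusted p = 0.198), and without SEM-K2 vehicle replicate 2 (1.09, adjusted p = 0.202). Without either RS4:11 vehicle array, either RS4:11 3xEC50 array or either SEM-K2 EC50 array the value stayed at 1.27 and the adjusted p was 0.0519 to 0.0594, with only the estimate of the spread and the other genes' p-values changed. The part of RNA quality in the result was not tested. Of the other 4 probe sets of SQSTM1, 2 were below 4 on all 12 arrays and 2 were above it on all 12. The latter gave 0.17 and 0.23 in SEM-K2 at 3xEC50, and -0.12 and 0.58 in RS4:11. Over the mean of all 5 probe sets the SEM-K2 difference was 0.51 (adjusted p = 0.155).

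**Figure D2:**
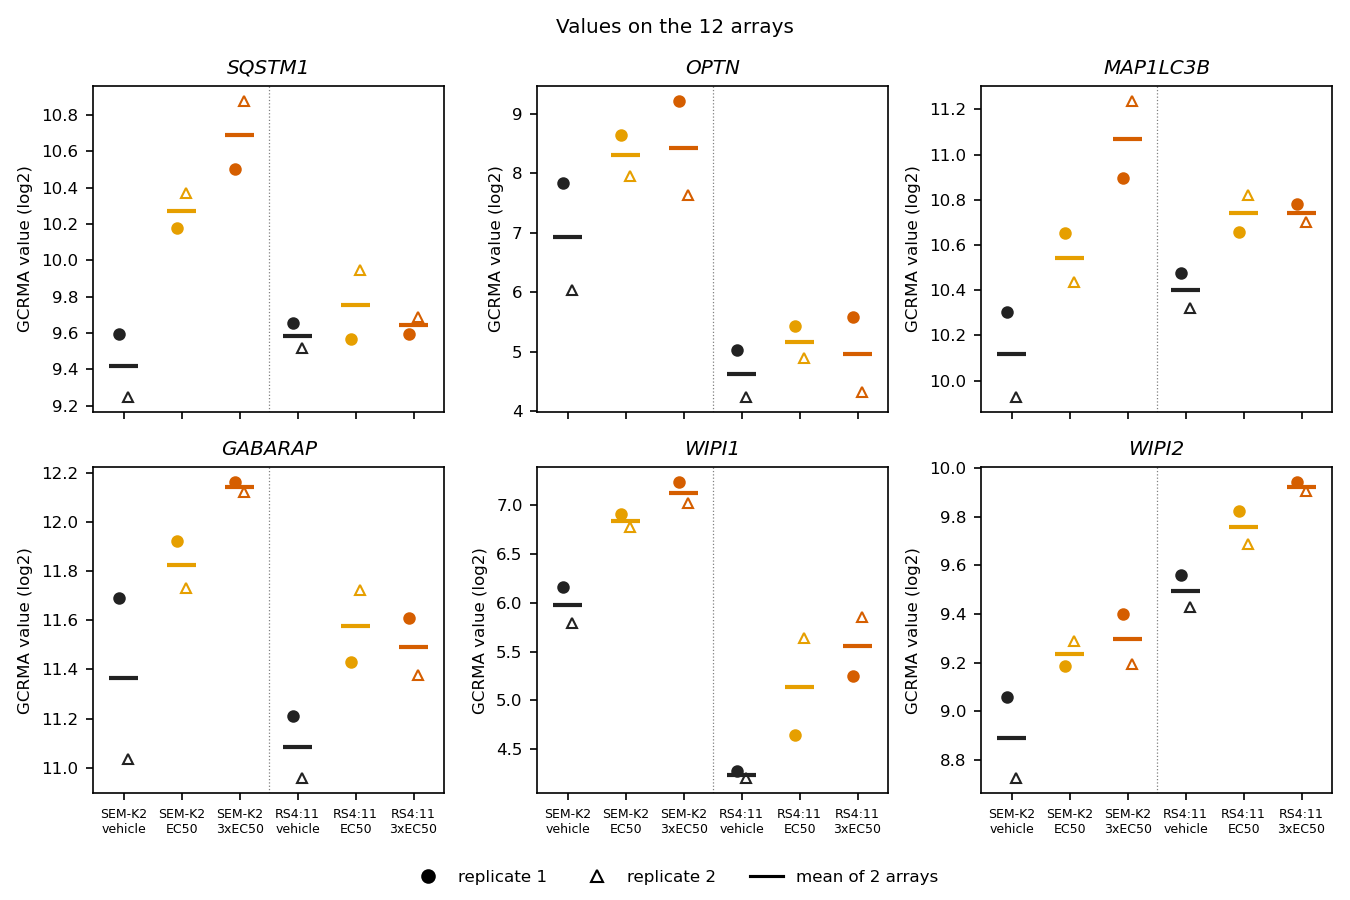
Log2 GCRMA value on each of the 12 arrays (y axis, scaled separately per gene) in the 6 groups of line and dose (x axis) for SQSTM1, OPTN, MAP1LC3B, GABARAP, WIPI1 and WIPI2. Circles are replicate 1, triangles replicate 2 and bars the mean of 2 arrays; the SQSTM1 mean is 9.42 in SEM-K2 vehicle and 10.69 at 3xEC50, and the arrays lie between 9.52 and 9.95 in RS4:11.

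OPTN was at 7.84 and 6.03 in SEM-K2 vehicle, 8.65 and 7.96 at the EC50 and 9.22 and 7.65 at 3xEC50. In RS4:11 it was at 5.03 and 4.23, 5.43 and 4.89, and 5.59 and 4.32. Replicate 1 was the higher array in all 6 groups, by 0.54 to 1.81, so that the SEM-K2 vehicle and 3xEC50 groups overlapped while both same-numbered pairs differed by a like amount (1.38 and 1.61). The SEM-K2 difference at 3xEC50 was 1.50 ± 0.70 with an adjusted p of 0.453, and with the replicate block the adjusted p was 0.0413. At the EC50 it was 1.37 (adjusted p = 0.987, and 0.121 with the block). The second probe set of OPTN, above 4 on 5 arrays, gave 2.56 at 3xEC50 and had both treated arrays above both vehicle arrays.

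NBR1, a receptor related to SQSTM1, was at 8.40 and 8.31 in SEM-K2 vehicle, 8.39 and 8.54 at the EC50 and 8.44 and 8.63 at 3xEC50. The RS4:11 values were 7.98 and 7.56, 8.12 and 8.26, and 7.97 and 8.28. Its RS4:11 EC50 arrays lay above both vehicle arrays, by 0.42 ± 0.18 (adjusted p = 1.0), and its 3xEC50 arrays overlapped with vehicle. CALCOCO2 differed from vehicle by 0.27 at both doses in SEM-K2 and by 0.01 and 0.12 in RS4:11, and TAX1BP1 by 0.19 and 0.31 in SEM-K2 and by -0.06 at both doses in RS4:11. The arrays of the mitochondrial receptors overlapped with vehicle in SEM-K2 at both doses, and those of BNIP3L also in RS4:11. Within same-numbered pairs of SEM-K2, BNIP3 lay above vehicle by 0.62 and 0.66 at the EC50 and by 0.41 and 0.39 at 3xEC50 (adjusted p = 0.778 and 0.758 with the block). BNIP3L lay above vehicle in both pairs at both doses of both lines, by 0.05 to 0.85, and its means differed by 0.43 and 0.27 in SEM-K2 and 0.45 and 0.61 in RS4:11 at the EC50 and 3xEC50. With the block its lowest adjusted p was 0.345, in RS4:11 at 3xEC50.

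**Figure D3:**
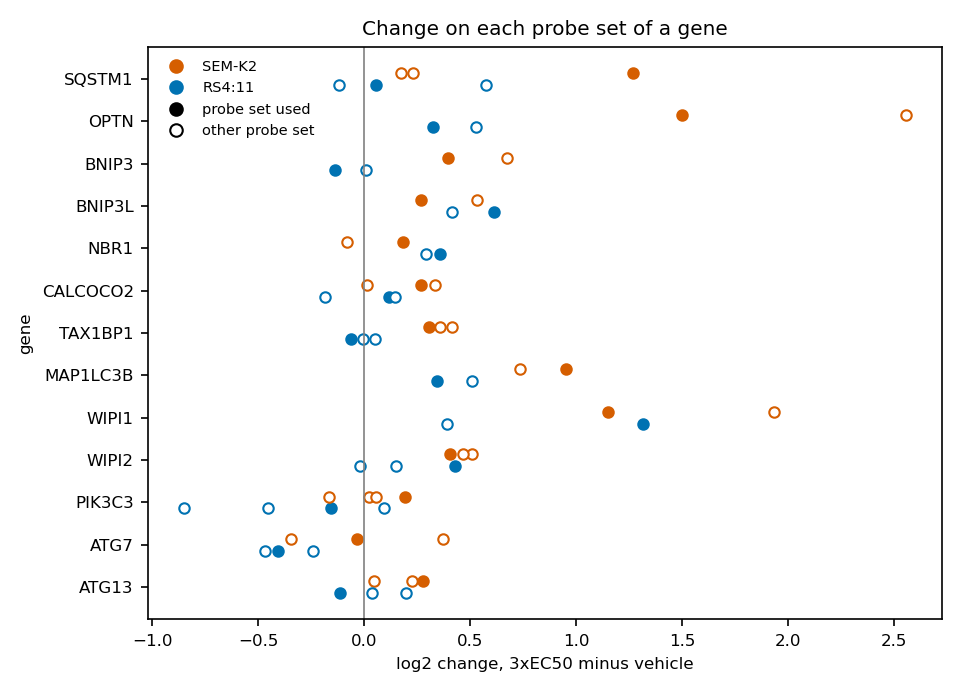
Log2 change at 3xEC50 against vehicle (x axis) on each probe set above 4 on at least 2 arrays, for the cargo receptors and 6 further genes with several such probe sets (y axis), in SEM-K2 (orange) and RS4:11 (blue). Filled points are the probe sets used; the 2 other probe sets of SQSTM1 lie at 0.17 and 0.23 in SEM-K2 where the one used lies at 1.27, and both of OPTN lie at 1.50 or above.

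Whether the lines differed in their response was tested directly. Limma called none of the 38 genes for a difference between lines at either dose, where 0.0379% of all genes were called at 3xEC50 and 0.00947% at the EC50. With the block it also called none, against 0.0473% and 0.00947% of all genes. At an unadjusted p under 0.05 there were 2 of 38 at 3xEC50, where 3.69% of all genes passed. At 3xEC50 the difference for SQSTM1 was 1.21 ± 0.28 (SEM-K2 minus RS4:11, 95% interval 0.58 to 1.85, unadjusted p = 0.00187, adjusted p = 0.528). On the 2 other probe sets of SQSTM1 above 4 on all 12 arrays, SEM-K2 changed by 0.17 and 0.23 and RS4:11 by -0.12 and 0.58. The size and direction of this difference thus depend on the probe set. For MAP1LC3B the difference was 0.61 ± 0.26 (unadjusted p = 0.044). At the EC50 SQSTM1 (0.68) had an unadjusted p under 0.05, as did 1.75% of all genes; ULK2, below 4 in 3 of the 4 groups of that comparison, is not read. For OPTN the difference at 3xEC50 was 1.18, with an interval from -1.05 to 3.40 that neither shows nor excludes a difference of that size. For WIPI1 and WIPI2 the unadjusted p was 0.722 and 0.921 at 3xEC50, which does not show that the lines respond alike.

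The lines differed more from each other than either did from its own vehicle. Between the vehicle groups, 8 of the 38 genes were called, 4 higher in SEM-K2 (BNIP3, OPTN, WIPI1 and ATG9A) and 4 higher in RS4:11 (ATG4D, PIK3C3, WIPI2 and ULK2, the last below 4 in both groups), where 19.6% of all genes were called. With the replicate block there were 11, BNIP3L, ATG2A and NBR1 being added on the SEM-K2 side, against 26.8% of all genes. The median difference of the 38 genes was 0.08 (0.01 over all genes).

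BNIP3, a mitophagy receptor known to respond to hypoxia, was at 10.75, 9.04, 11.37, 9.70, 11.15 and 9.43 on the SEM-K2 arrays (vehicle, EC50 and 3xEC50, replicates 1 and 2 in turn). On the RS4:11 arrays it was at 2.36, 2.69, 2.73, 2.82, 2.36 and 2.41, all below 4. The lowest SEM-K2 array was thus far above the highest RS4:11 array. In vehicle BNIP3 was at least 59.4-fold higher in SEM-K2, a bound set against the floor (7.37 ± 0.70 as measured). Its p is not read, as BNIP3 passed the filter through the SEM-K2 arrays alone. A second probe set gave 5.78. BNIP3L, its close relative, was at 11.76 and 10.64 in SEM-K2 vehicle and 10.18 and 8.14 in RS4:11 vehicle, a difference of 2.04 ± 0.92 that passed with the block (adjusted p = 8.03e-05) and not without it (0.174). OPTN was 4.94-fold higher in SEM-K2 vehicle (2.30 ± 0.70, adjusted p = 0.0462, with the block 4.31e-04).

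Among the initiation genes, WIPI1 was 3.33-fold higher in SEM-K2 vehicle (1.74 ± 0.31, adjusted p = 0.00352) on the probe set used and differed by 0.40 on its second one. ATG9A was at 7.90 and 7.70 in SEM-K2 vehicle and 7.29 and 6.41 in RS4:11 vehicle (0.95 ± 0.27, adjusted p = 0.0359). On the RS4:11 side, PIK3C3 was at 9.80 and 9.37 in SEM-K2 vehicle and 10.40 and 10.26 in RS4:11 vehicle (-0.75 ± 0.18, adjusted p = 0.0167). WIPI2 lay 0.60 lower in SEM-K2 (-0.60 ± 0.16, adjusted p = 0.0256), and over the alternative settings its difference ran from -0.77 to -0.04. ULK2, with both vehicle groups under the floor, is given no fold, and its p is not read. ATG4D was the conjugation enzyme that was called (-1.07 ± 0.15, adjusted p = 7.20e-04), and the other 10 enzymes lay between -0.19 and 0.41. No ATG8 gene was called, and SQSTM1 differed by -0.17 between the vehicle groups.

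**Figure D4:**
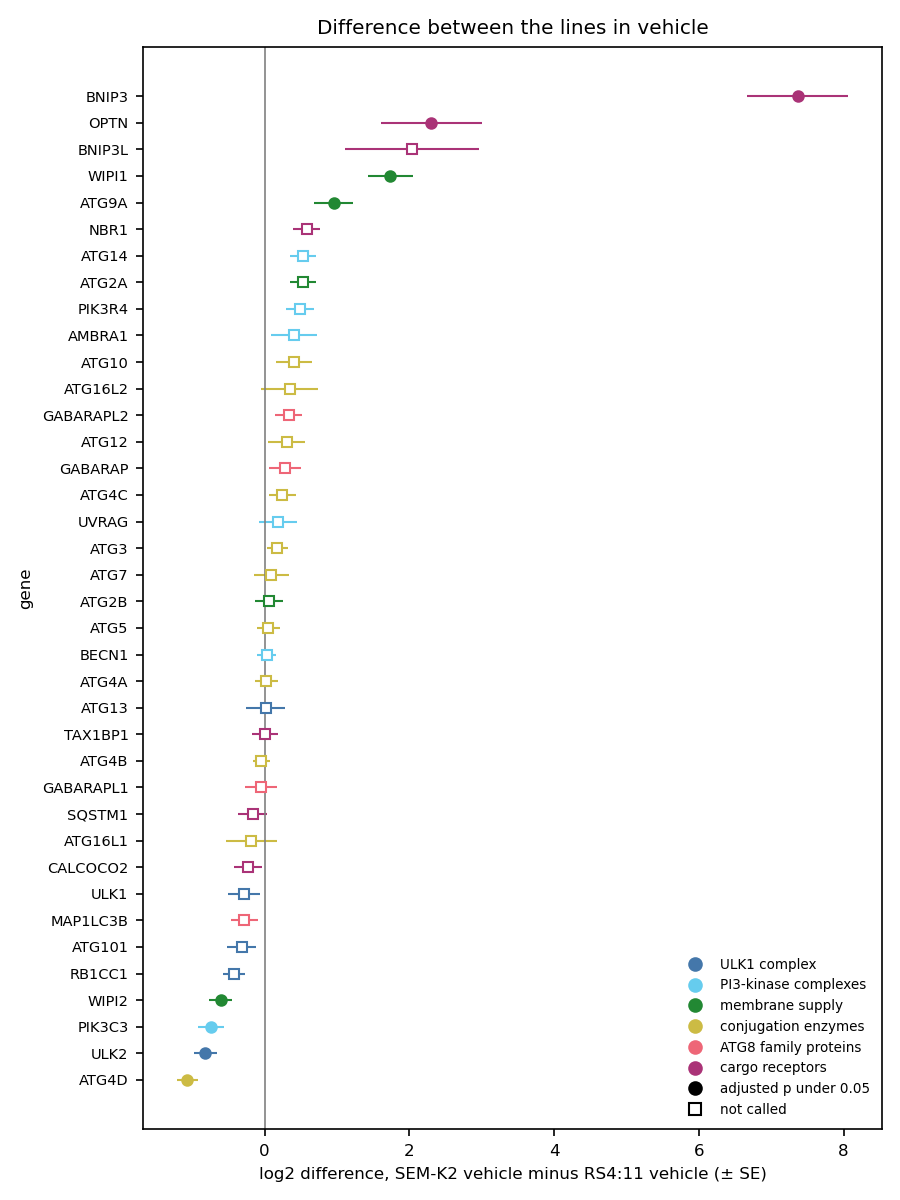
Log2 difference between the vehicle groups (x axis, SEM-K2 minus RS4:11, with bars for ± 1 SE of the fit over 12 arrays) for the 38 genes tested (y axis), coloured by role. Filled circles mark the 8 genes with an adjusted p under 0.05, of which BNIP3 and ULK2 are not read. BNIP3 stands at 7.37 and OPTN and BNIP3L at 2.30 and 2.04.

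A few of these genes differed widely by replicate number, while the count that did so in all groups was near that of all genes. BNIP3L was higher on the replicate 1 array than on the replicate 2 array in all 6 groups, by 1.11 to 2.04, as was OPTN by 0.54 to 1.81. BNIP3 was higher on replicate 1 by 1.67 to 1.73 in the 3 SEM-K2 groups, where it was measured above 4. In all, 5 of the 38 genes were higher on replicate 1 in all 6 groups (13.0% of all genes) and 3 higher on replicate 2 (ATG16L1, UVRAG and ATG2A, 8.72% of all genes). The other 3 that were higher on replicate 1 are PIK3C3, ATG4C and CALCOCO2, with medians of 0.17 to 0.24. The labels do not say what the replicate numbers stand for.

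**Figure D5:**
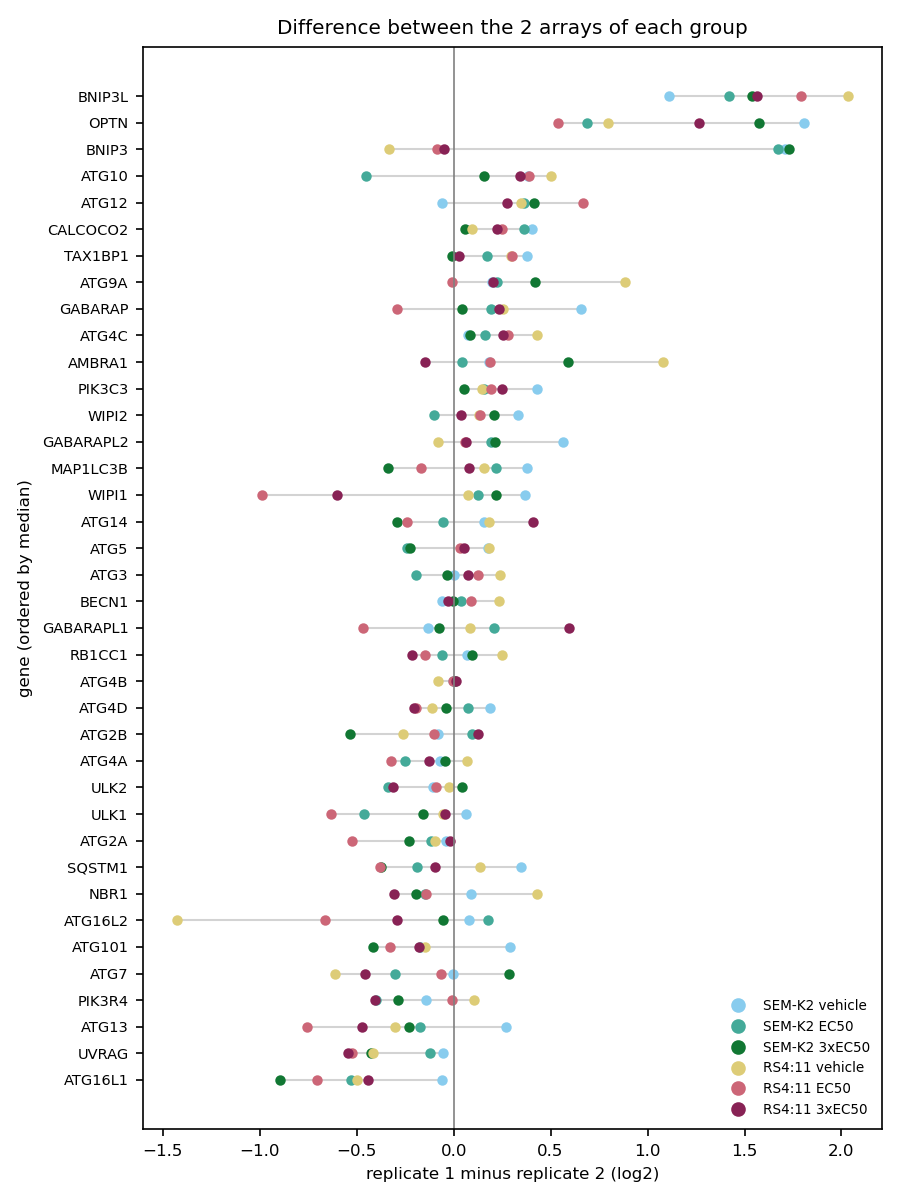
Replicate 1 minus replicate 2 on the log2 scale (x axis) in each of the 6 groups (coloured points) for the 38 genes tested (y axis, ordered by median, with grey lines over the range). BNIP3L and OPTN lie right of 0 in all 6 groups and BNIP3 in the 3 SEM-K2 groups, while most of the other genes straddle 0.

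A further list of 48 autophagy genes outside the set, with 47 on the array and 42 tested, covered other ATG8 and initiation genes, autophagosome transport and fusion, and further selective receptors. In SEM-K2 at 3xEC50, 35 of 42 lay above vehicle (median 0.19), as did 58.6% of all genes. None was called, 6 had an unadjusted p under 0.05, all upward (8.1% of all genes), and 2 were called upward with the block (1.55% of all genes). The 3 with the smallest p were EPG5, a tether for fusion with lysosomes (0.74, adjusted p = 0.132 and 0.0271 with the block), WDFY3, a scaffold for aggregate clearance (0.69, adjusted p = 0.146 and 0.0773 with the block), and DRAM1, a lysosomal membrane protein (0.94, adjusted p = 0.268 and 0.0411 with the block). In SEM-K2 at the EC50, 32 of 42 lay above vehicle. In RS4:11 at 3xEC50, 26 of 42 lay above vehicle (median 0.05) and none was called, with or without the block. The 3 with the smallest p there were TP53INP1 (at least 1.12-fold, a bound set against the floor), SNX30 (0.35) and VAMP8 (0.29). TP53INP1 lay under the floor in vehicle, so its p is not read. Between the vehicle groups, 8 of 42 were called, where 19.6% of all genes were. RETREG1 (1.97) and SNX30 (0.74) were called higher in SEM-K2. VAMP8 (-1.15), DRAM1 (-1.48), TP53INP2 (-1.23), TEX264 (-0.64), EPG5 (-0.60) and TP53INP1 were called higher in RS4:11. TP53INP1, with both groups under the floor, stays in this count, but its p is not read.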

How the data were processed

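RNA of 12 samples (6 groups, 2 replicates each) was measured on Affymetrix U133 Plus 2 arrays. The authors deposited 1 GCRMA value per probe set and array, per the submitters' processing notes; the version is not given in the sources used here. The deposited values run from 0.64 to 16.22 and were read as log2, a scale that the sources do not state. GCRMA corrects background by probe sequence and normalises arrays by quantiles, so a shift of all genes would not show. Array values carry no depth, and 2 arrays per group limit the precision.

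Of 54675 probe sets, 41097 had a single symbol, 1801 several and 11777 none in the platform annotation. 3 further probe sets of VMP1 and 1 of GABARAPL1 shared a symbol with another gene and were not used. Of the 39 chosen probe sets 18 end in _s_at and 1 in _x_at, which can match other transcripts or genes. Genes above 4 on at least 2 arrays (10561 of 19775) were fitted in R 4.3.3 by the lmFit and eBayes functions of limma 3.58.1, with 6 group means over 12 arrays (6 residual and 3.27 prior degrees of freedom). All 9 contrasts share this spread. P-values were adjusted by Benjamini-Hochberg within a contrast over all genes tested and called under 0.05. The symbol ± marks the SE. The script was tested on simulated data.

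The replicate numbers were taken as pairing the samples, since the deviations of same-numbered arrays from their group means correlated at 0.19 to 0.60 in all 15 pairs of groups, above the limit of 0.1. As the labels name no block, the fit without it was the main one. The fit with that block was an alternative and is given beside it where a call changed. Other alternatives changed the low-value filter (none, or above 6), the probe set, the centring, the variance model, the groups fitted and the arrays included. The members and lists were chosen with earlier results of these data known. Named with array values are called members and up to 2 members per role with the smallest p against vehicle.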

Additional observations from a re-analysis of the deposited data

How the results depend on the processing

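Of the alternatives tried, no value changed sign. Members called at 3xEC50 in SEM-K2 numbered 1 as reported, 3 with the replicate block, 4 with the block within each line (WIPI1 being added to SQSTM1, MAP1LC3B and OPTN), 2 with trend and robust eBayes, 0 without a low-value filter (SQSTM1 adjusted p = 0.0696), 0 when only the groups compared were fitted (0.535), and 0 with the block and without SEM-K2 3xEC50 replicate 2 (0.129). This last setting was chosen after seeing the data. Leaving out 1 array at a time gave 0 to 3 calls, 3 without SEM-K2 vehicle replicate 1 and 2 without SEM-K2 3xEC50 replicate 1. Between the vehicle groups the count was 8 as reported, 4 when only the groups compared were fitted, and 5 to 8 when 1 array was left out, with 5 without RS4:11 vehicle replicate 2 or SEM-K2 vehicle replicate 2. Fits without an array, or of fewer groups, have fewer residual degrees of freedom. Pairing by the block moved no other count of members called against vehicle, between doses or between responses, all of which were 0 under every alternative. The called vehicle differences of ATG4D and WIPI1 stayed called in all 21 alternatives. Those of BNIP3 and ULK2, which passed the filter through arrays of 1 line alone, are in the counts of called members above and are not read. OPTN was called in 12 of 21, ATG9A in 10, PIK3C3 in 17 and WIPI2 in 16. Centring each array on its median lowered the SEM-K2 changes by 0.09 at 3xEC50 and 0.07 at the EC50. With 2 arrays per group and a median SE of 0.19, differences of the size most members had cannot be told from 0.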
